A study of Oryza sativa Japonica Group with 6 samples.

Results

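Catalases, ascorbate peroxidases and glycolate oxidases make and remove hydrogen peroxide in the rice leaf, and 10 of their genes were followed here on 6 one-colour oligonucleotide arrays. The genes were the catalases CATA, CATB and CATC, the ascorbate peroxidases APX1, APX2, APX3, APX4 and APX8, and the glycolate oxidases GLO1 and GLO4. They were chosen as 10 fixed locus identifiers out of 28855 loci on the array, by a rule that uses no measured value, although earlier results of these data were known when the set was drawn up, and all of their probes were read. The pairing of identifiers with these gene names is general knowledge, since the sources used here do not join them. All 35 probes of the 10 loci were well above background on all 6 arrays, so no member was lost to a filter on dim signals.

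RNA came from blades of the fourth leaf of Nipponbare rice at the 4-leaf stage, grown from seed at 25 °C with no treatment. The wild-type group had 3 samples and the Line 13 group had 3, and each sample pooled at least 3 plants. Line 13 is a single transgenic line that was made to overexpress a linalool synthase and that accumulates linalool, a monoterpene alcohol. The sources used here do not name the promoter that drives the introduced gene.

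When Rubisco takes up oxygen in place of carbon dioxide it makes phosphoglycolate, and the photorespiratory pathway returns most of that carbon to the Calvin cycle through chloroplasts, peroxisomes and mitochondria. In the leaf peroxisome, glycolate oxidase turns glycolate into glyoxylate and releases hydrogen peroxide, which catalase splits into water and oxygen. Ascorbate peroxidases remove hydrogen peroxide with ascorbate as the electron donor, in the cytosol, in peroxisomes and in chloroplasts, and the ascorbate-glutathione cycle then restores the ascorbate. In rice, CATC is known as the catalase of leaf blades, CATB as a catalase of roots and CATA as one of leaf sheaths and seedlings.

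Signals were divided by the 75th percentile of their array and put on a log2 scale, called the log2 signal below, so that a value of 0 marks a probe as bright as that percentile. Probes differ in how strongly they bind, so levels are compared between arrays for one gene and not between genes. The targeted linalool synthase locus Os02g0121700 was lower, not higher, under the Line 13 label (log2 difference -3.43, SE 0.90). Its log2 signal was -3.32, -0.92 and -1.50 in the wild-type set and -6.52, -5.84 and -3.65 in the Line 13 set. The locus was well above background on 5 of the 6 arrays. It entered the test through the wild-type set alone, so nothing is read from its call. The sources used here do not say whether its 1 probe lies within the transgene. Were the labels exchanged, every direction below would turn, which was not tested, so each is one between the labels. Line 13 replicate 1 stood apart from its set, with correlations across genes as low as 0.902 among Line 13 arrays against at least 0.976 among wild-type arrays. The wild-type arrays shared 1 slide and scan day and the Line 13 arrays another, so slide, scan and group cannot be told apart. The labels call the samples biological replicates of pooled plants, and the 3 arrays a group limit the precision.

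The comparison asks which of these genes differ between leaf blades labelled Line 13 and wild type. The photorespiratory genes CATC, GLO1 and GLO4 fell 4.78-fold to 7.63-fold, and the ascorbate peroxidase genes APX2, APX4 and APX8 fell 2.15-fold to 3.97-fold. APX3 rose 3.80-fold. CATA, CATB and APX1 did not pass the test. Thus 6 of 10 loci were lower and 1 was higher at limma adjusted p under 0.05, where 28.0% of all 22232 loci tested were lower, 26.8% were higher and 54.7% were called in either direction. The groups did not overlap for 8 of the 10 loci, against 68.5% of all loci. With 7 of 10 members called in either direction, the share called lay near that background, and the description below rests on the direction and size of each gene.

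**Figure D1:**
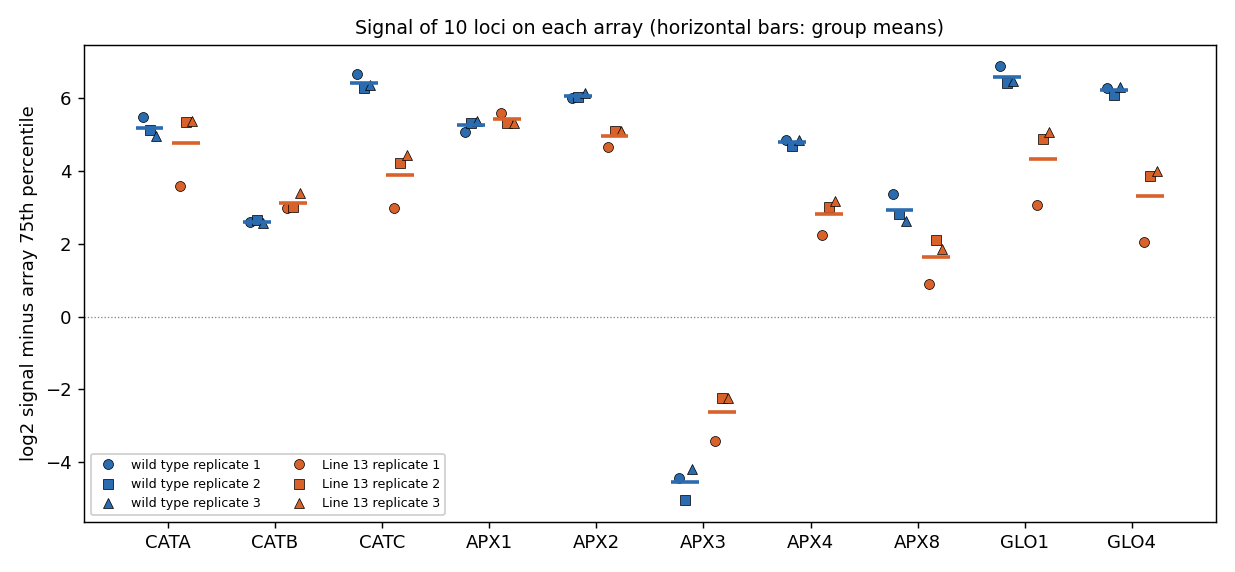
Log2 signal, scaled to each array's 75th percentile (vertical axis), for the 10 loci (horizontal axis), with 1 point per array and a horizontal bar at each group mean of 3 arrays. CATC, GLO1, GLO4, APX2, APX4 and APX8 lie lower on all 3 Line 13 arrays and APX3 lies higher. Levels are not comparable between loci.

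CATC, Os03g0131200 on chromosome 3, is the catalase that deals with photorespiratory hydrogen peroxide in the leaf blade. Its log2 signal was 6.66, 6.28 and 6.37 on wild-type replicates 1 to 3 and 2.99, 4.24 and 4.43 on Line 13 replicates 1 to 3. Each Line 13 array was below each wild-type array. CATC fell by 2.55 on the log2 scale (SE 0.40, adjusted p = 0.00260), a 5.86-fold lower signal, and only 4.89% of all loci had a more negative difference. Without Line 13 replicate 1, its lowest array, the difference was -2.10 with adjusted p = 0.000479.

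CATA and CATB did not pass the test. CATA, Os02g0115700 on chromosome 2, had log2 signals of 5.49, 5.13 and 4.97 in the wild-type set and 3.59, 5.36 and 5.37 in the Line 13 set. Line 13 replicate 1 was far below all others, while the remaining Line 13 arrays lay within the wild-type range. Its log2 difference was -0.43 (SE 0.51, 95% interval -1.65 to 0.80, adjusted p = 0.502). Without Line 13 replicate 1 it turned to 0.16, with adjusted p = 0.496, so its sign rested on that array.

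CATB, Os06g0727200 on chromosome 6, had log2 signals of 2.59, 2.66 and 2.58 in the wild-type set and 3.00, 3.02 and 3.39 in the Line 13 set. All Line 13 arrays were above all wild-type arrays by a small step. Its log2 difference was 0.53 (SE 0.19, 95% interval 0.07 to 0.99), and adjusted p = 0.0550 left it just outside the threshold. It passed without Line 13 replicate 1, with a difference of 0.60 and adjusted p = 0.0258, and under 3 of the other alternatives.

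GLO1 and GLO4 encode glycolate oxidase, the peroxisomal enzyme that makes the hydrogen peroxide on which CATC acts. GLO1, Os03g0786100 on chromosome 3, had log2 signals of 6.88, 6.43 and 6.48 in the wild-type set and 3.06, 4.88 and 5.08 in the Line 13 set. It fell by 2.26 on the log2 scale (SE 0.54, adjusted p = 0.0133). The sets were apart by more than 1 log2 unit even at their nearest arrays. Without Line 13 replicate 1 the difference was -1.62, with adjusted p = 0.00155.

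GLO4, Os07g0152900 on chromosome 7, had log2 signals of 6.30, 6.10 and 6.31 in the wild-type set and 2.05, 3.86 and 4.0 in the Line 13 set. It fell by 2.93 on the log2 scale (SE 0.52, adjusted p = 0.00426), 7.63-fold, the largest fall among the 10 loci. Only 3.23% of all loci had a more negative difference. Without Line 13 replicate 1 the fall was smaller, with a difference of -2.31 and adjusted p = 0.000193.

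The peroxisomal ascorbate peroxidases went opposite ways. APX4, Os08g0549100 on chromosome 8, had log2 signals of 4.85, 4.70 and 4.85 in the wild-type set and 2.24, 3.01 and 3.17 in the Line 13 set. It fell by 1.99 on the log2 scale (SE 0.28, adjusted p = 0.00168), and the sets were well apart. APX3, Os04g0223300 on chromosome 4, was dim, with log2 signals of -4.43, -5.05 and -4.19 in the wild-type set and -3.42, -2.24 and -2.23 in the Line 13 set. It rose by 1.93 on the log2 scale (SE 0.40, adjusted p = 0.00801), with every Line 13 array above every wild-type array. A background correction on the raw spot signals, chosen after seeing the data, gave a difference of 1.18 for this dim gene, with adjusted p = 0.00328.

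Of the cytosolic ascorbate peroxidases, which serve the cell outside its organelles, APX2 fell and APX1 did not pass the test. APX2, Os07g0694700 on chromosome 7, had log2 signals of 6.02, 6.04 and 6.14 in the wild-type set and 4.66, 5.11 and 5.11 in the Line 13 set. It fell by 1.11 on the log2 scale (SE 0.20, adjusted p = 0.00461), and its sets did not overlap. Under quantile normalization the difference was -0.55 and did not pass, with adjusted p = 0.0844. APX1, Os03g0285700 on chromosome 3, had log2 signals of 5.07, 5.33 and 5.39 in the wild-type set and 5.60, 5.33 and 5.33 in the Line 13 set. The sets overlapped, and the difference was 0.16 (SE 0.19, 95% interval -0.31 to 0.62, adjusted p = 0.511). Its direction depended on the scale, at -0.15 with array medians and 0.65 with quantile normalization, where adjusted p = 0.0329 passed.

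APX8, Os02g0553200 on chromosome 2, encodes the ascorbate peroxidase bound to the thylakoid membrane of chloroplasts. Its log2 signal was 3.36, 2.81 and 2.62 in the wild-type set and 0.90, 2.11 and 1.87 in the Line 13 set. The lowest wild-type array and the highest Line 13 array were close, but the sets did not overlap. APX8 fell by 1.31 on the log2 scale (SE 0.38, adjusted p = 0.0250). The call was lost without wild-type replicate 1 (difference -1.09, adjusted p = 0.0834) or wild-type replicate 2 (difference -1.37, adjusted p = 0.0637). It was also lost with arrays scaled to the brightest 25% of loci, an alternative chosen after seeing the data (difference -1.01, adjusted p = 0.0608).

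**Figure D2:**
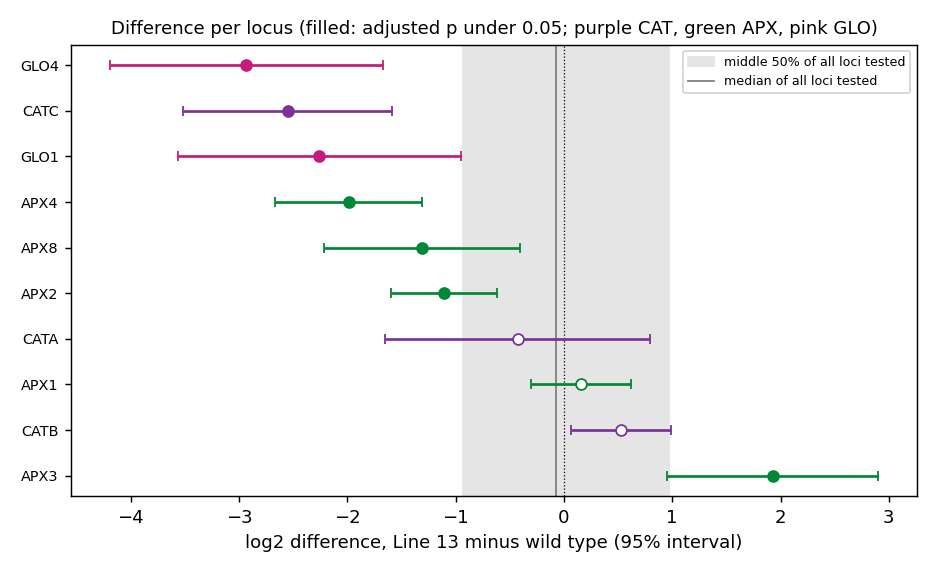
Log2 difference of the arrays labelled Line 13 minus wild type (horizontal axis) with its 95% limma interval for the 10 loci, sorted by value. Filled points passed adjusted p under 0.05. The grey band holds the middle 50% of all 22232 loci tested, from -0.93 to 0.97. GLO4, CATC, GLO1 and APX4 lie furthest to the left at -2.93, -2.55, -2.26 and -1.99, and APX3 lies furthest to the right at 1.93.

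Within each gene every probe gave the same call. All 4 probes of CATC were lower, with log2 differences from -2.80 to -2.48, and none of the 6 probes of CATA was called, with differences from -0.47 to -0.21. The 4 probes of GLO1 ran from -2.33 to -2.06 and the 4 probes of GLO4 from -3.13 to -2.69, all called lower. All 5 probes of APX2, both of APX4 and all 3 of APX8 were lower as well, and the 3 probes of CATB and the 3 of APX1 were not called. APX3 had 1 probe. Across the 10 loci 22 of 35 probes were lower and 1 was higher, but probes of one gene share its RNA and are not independent. In 2 genes, a probe assigned to a second transcript was far dimmer than its neighbours. For APX2 the probe of transcript Os07t0694700-02 had a mean log2 signal of -0.64 in the wild-type set and a difference of -2.63, against -1.34 to -1.09 at the remaining 4 probes. For GLO4 the probe of transcript Os07t0152900-02 had a mean log2 signal of 0.21 on the wild-type arrays, and its difference of -3.13 lay close to those of the brighter probes. Probe sequences were not used here, so binding to near-identical family members was not tested.

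**Figure D3:**
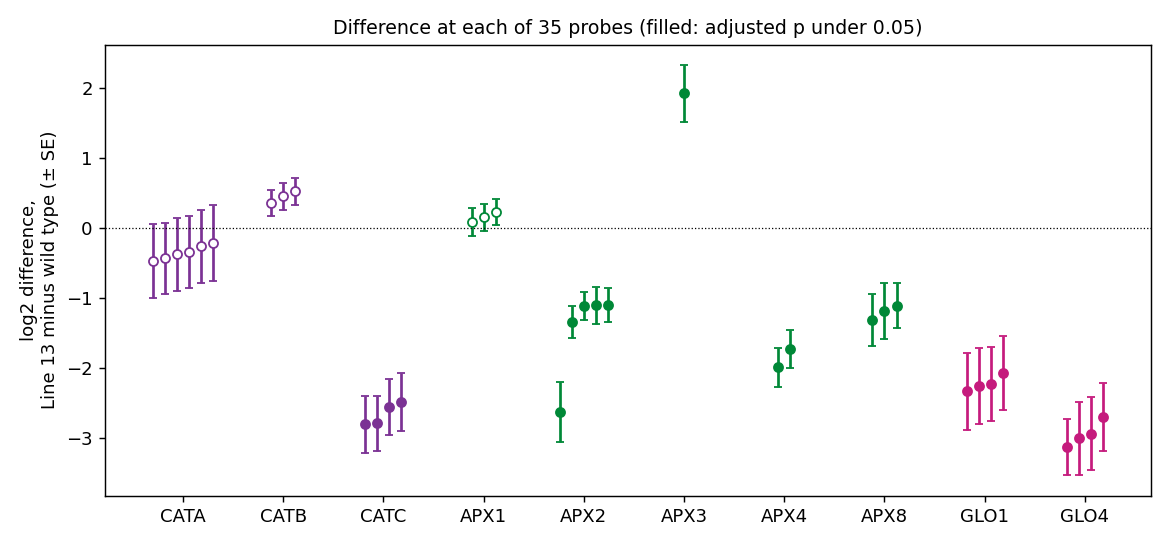
Log2 difference of Line 13 minus wild type with its SE (vertical axis) at each of the 35 probes, grouped by locus (horizontal axis). Filled points passed adjusted p under 0.05 over all probes tested. Probes of a locus lie together, except 1 probe of APX2 at -2.63.

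Whether isoforms of one enzyme differed in their change was examined within each array, where the scale between arrays cancels. The log2 signal of CATC minus that of CATA was 1.17, 1.15 and 1.40 in the wild-type set and -0.60, -1.12 and -0.93 in the Line 13 set. The sets did not overlap, and the shift was -2.12 on the log2 scale, a 4.36-fold step against CATC. Line 13 replicate 1, where CATA and CATC were both lowest, gave a value near those of the other Line 13 arrays.

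Against CATB, CATC shifted by -3.08 on the log2 scale, from a mean of 3.83 (SD 0.23, n = 3) on the wild-type arrays to 0.75 (SD 0.67, n = 3) in the Line 13 set. CATB minus CATA shifted by 0.95, but only by 0.43 without Line 13 replicate 1. APX1 minus APX2 went from -0.80 (SD 0.13, n = 3) to 0.46 (SD 0.42, n = 3), a shift of 1.27. APX3 minus APX4 shifted most, by 3.91, from a mean of -9.35 (SD 0.36, n = 3) to -5.44 (SD 0.21, n = 3). This shift rests on the dim probe of APX3. It was 3.23 under quantile normalization and 3.16 with the other background correction, chosen after seeing the data.

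Both glycolate oxidase genes fell, and their within-array difference also changed level. GLO1 minus GLO4 was 0.59, 0.33 and 0.17 in the wild-type set and 1.02, 1.02 and 1.08 in the Line 13 set, a shift of 0.67 towards GLO1. Its SD over the Line 13 arrays was 0.04, while the SD of each gene's own log2 signal there was 1.11 for GLO1 and 1.09 for GLO4. CATC minus GLO1 was -0.22, -0.15 and -0.12 in the wild-type set and -0.08, -0.64 and -0.65 in the Line 13 set. The sets overlapped, with a shift of -0.29, so unequal change of CATC and GLO1 was not shown at this number of arrays.

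For 6 of the 7 pairs the sets of within-array values did not overlap, and p = 0.1 by an exact two-sided permutation test, or 0.117 adjusted over the pairs. That test can give no smaller p for 3 against 3 arrays. For CATC minus GLO1 the exact permutation test gave p = 0.4. Since the permutation test cannot pass a threshold of 0.05 here, and the pairs were not fitted with limma, these shifts are given as sizes with the spread between arrays.

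**Figure D4:**
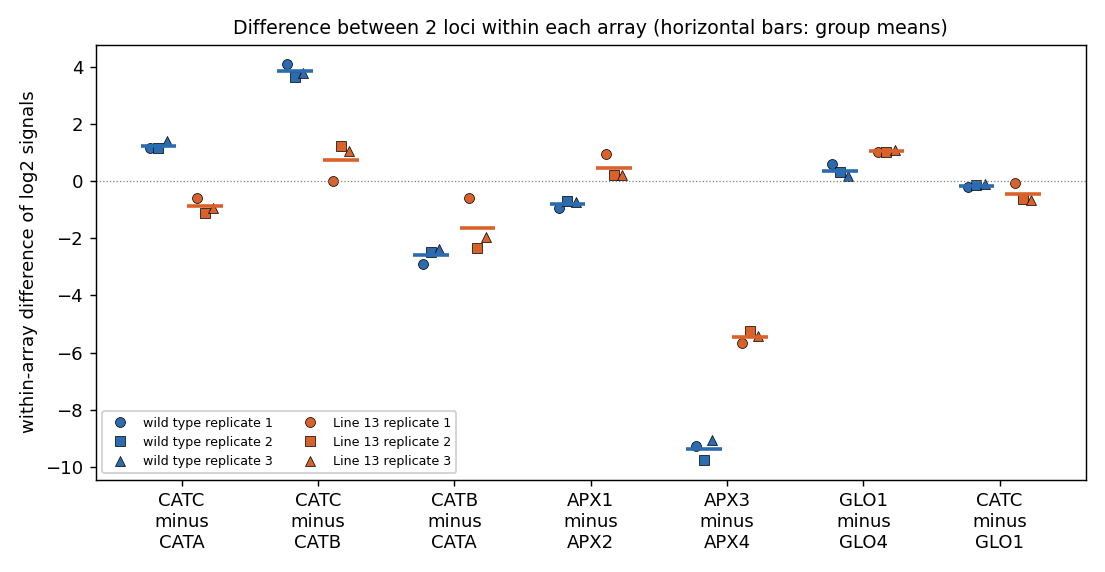
Difference between the log2 signals of 2 loci within each array (vertical axis) for 7 pairs (horizontal axis), with 1 point per array and a bar at each group mean of 3 arrays. The wild-type and Line 13 points are apart in every pair except CATC minus GLO1. The height of a pair depends on its probes, and only the step between groups is read.

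The 10 genes varied more among the Line 13 arrays than among the wild-type arrays. Their median SD was 0.66 on the log2 scale over the Line 13 arrays and 0.19 over the wild-type arrays, where all loci had medians of 0.43 and 0.18. Line 13 replicate 1 was the lowest array of its set for 9 of the 10 genes, against 39.9% of all loci and 43.1% of the brightest 25% of loci. APX1 was the exception and was highest there. Before scaling, Line 13 replicate 1 was also the dimmest array, with a 75th percentile signal of 325 against 1559 and 932 on replicates 2 and 3. Its share of spots well above background was 72.3%, against 85.5% and 81.2% on those arrays and 71.4% to 72.3% on the wild-type arrays. The part of array brightness in these values was not tested. The difference between replicate 1 and the mean of the other Line 13 arrays was -1.92 for GLO1, -1.88 for GLO4, -1.77 for CATA and -1.35 for CATC. It was -0.45 for APX2 and -0.21 for CATB. Without that array the counts were 6 lower and 2 higher.

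The rest of the photorespiratory pathway was mostly lower as well. Of 16 other genes of the pathway, all tested, 12 fell and 1 rose, with a median log2 difference of -1.55, where the median was -0.07 over all loci and -0.25 over the brightest 25% of loci. Among those bright loci 34.6% of loci were lower and 18.3% higher. Glycine decarboxylase, the mitochondrial complex that releases carbon dioxide and ammonia, had both genes of its P protein lower. Os01g0711400 had log2 signals of 5.97, 5.81 and 5.95 in the wild-type set and 2.59, 3.45 and 3.36 in the Line 13 set, and it fell by 2.78 (SE 0.27, adjusted p = 0.000365). Os06g0611900 fell by 2.31 (SE 0.24, adjusted p = 0.000460). Hydroxypyruvate reductase, HPR1, Os02g0101500, a late peroxisomal step of the pathway, fell by 2.56 (SE 0.27, adjusted p = 0.000461).

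GLO3, Os04g0623500, another glycolate oxidase gene, went the other way. Its log2 signal was -2.28, -1.14 and -1.45 in the wild-type set and 2.84, 2.57 and 2.63 in the Line 13 set. It rose by 4.30 on the log2 scale (SE 0.32, adjusted p = 0.000114), with the sets far apart. Of the genes named to complete the family after their values were seen, GLO2, Os04g0623600, the next identifier on the same chromosome, fell by 1.31 (SE 0.25), and GLO5, Os07g0616500, had a difference of -1.34 that did not pass (SE 0.48, adjusted p = 0.0535).

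The remaining genes of the list, given for completeness after their values were seen, follow the order of the pathway. Phosphoglycolate phosphatase, PGLP1, Os04g0490800, the entry step in the chloroplast, fell by 1.89 (SE 0.40). Of the aminotransferases that turn glyoxylate into glycine, GGAT, Os07g0108300, fell by 2.23 (SE 0.43) and SGAT, Os08g0502700, fell by 1.47 (SE 0.27). In the mitochondrial step the T protein of glycine decarboxylase, Os04g0623800, fell by 1.75 (SE 0.37) and serine hydroxymethyltransferase, SHM1, Os03g0738400, fell by 2.19 (SE 0.26). The H protein, Os10g0516100, had a difference of -0.28 (SE 0.18, adjusted p = 0.229), and lipoamide dehydrogenase, Os01g0328700, which also serves other mitochondrial complexes, had one of 0.02 (SE 0.22, adjusted p = 0.952). Glycerate kinase, GLYK, Os01g0682500, the last step back in the chloroplast, fell by 1.63 (SE 0.37). Of the chloroplast enzymes that recover the released ammonia, ferredoxin-dependent glutamate synthase, Os07g0658400, fell by 1.46 (SE 0.27) and glutamine synthetase GS2, Os04g0659100, by 0.68 (SE 0.21, adjusted p = 0.0337).

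Among 12 other genes of the ascorbate-glutathione cycle, all tested, 4 were called lower and 3 higher, with a median log2 difference of -0.56. These counts lie near the background of 28.0% lower and 26.8% higher over all loci, so nothing is read from them about the list. A monodehydroascorbate reductase gene, Os02g0707100, which restores ascorbate from its radical, fell by 2.78 (SE 0.44, adjusted p = 0.00258), and another, Os09g0567300, fell by 0.71 (SE 0.18, adjusted p = 0.0163). Another gene of this enzyme, Os08g0151800, rose by 0.49 (SE 0.17, adjusted p = 0.0440). Dehydroascorbate reductase DHAR2, Os06g0232600, fell by 1.51 (SE 0.24, adjusted p = 0.00280). Of the glutathione reductase genes, Os02g0813500 fell by 1.19 (SE 0.26, adjusted p = 0.00898), while Os03g0851100 rose by 1.73 (SE 0.47, adjusted p = 0.0212) and Os10g0415300 rose by 1.18 (SE 0.32, adjusted p = 0.0197). The dim Os10g0415300 was well above background on only 5 of the 6 arrays. It thus entered the test through 1 set alone, and nothing is read from its call. With probes well above background on all 6 arrays, 2 genes of this list were higher. The 3 genes that rose were named after their values were seen. The remaining ascorbate peroxidases, given to complete the family, were not called: APX5, Os12g0178200, had a difference of -0.74, APX6, Os12g0178100, one of 0.69, and APX7, Os04g0434800, one of -0.18. The count of higher genes in this list was 1 when any one wild-type array was left out and 1 with array medians as the scale, where 7 were lower.

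**Figure D5:**
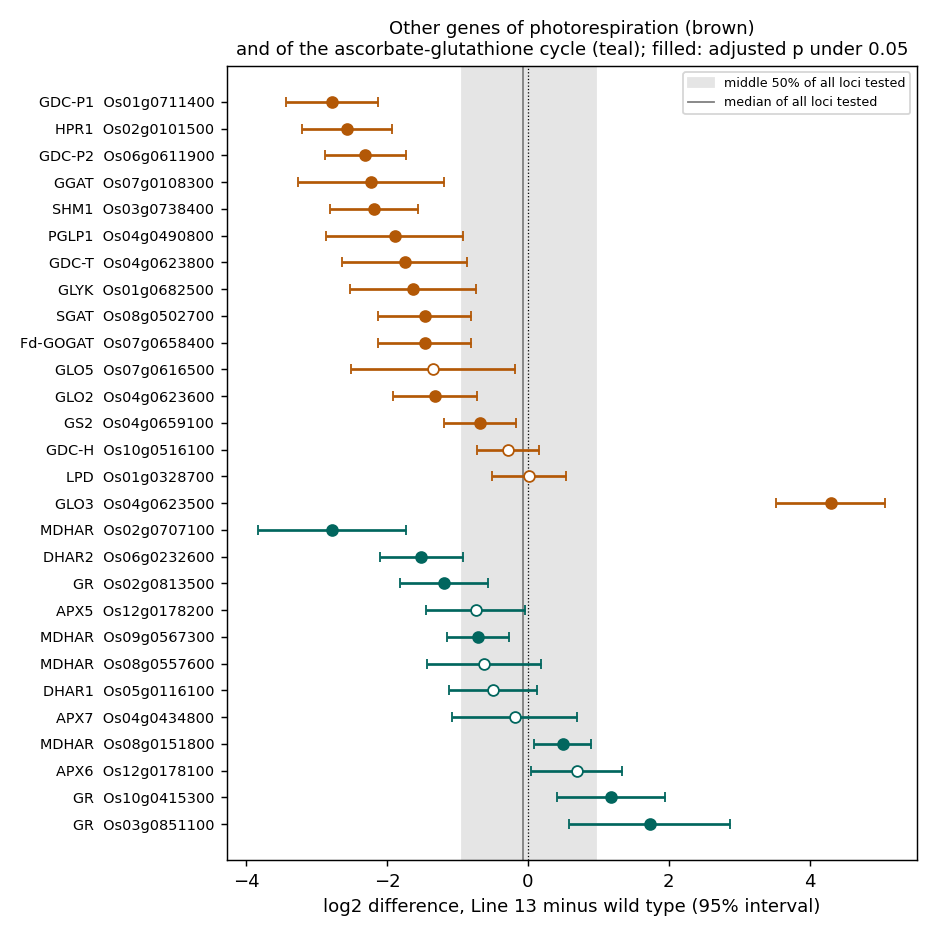
Log2 difference of Line 13 minus wild type with its 95% limma interval (horizontal axis) for 16 other photorespiratory loci and 12 other loci of the ascorbate-glutathione cycle, sorted within each list. Filled points passed adjusted p under 0.05. Of the photorespiratory loci, 12 filled points lie left of 0, and GLO3 is the only filled point on the right, at 4.30.

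Markers of tissue were read beside these genes. Of 6 leaf blade markers, genes of the Rubisco small subunit and of light-harvesting proteins, none was called by limma, where their median log2 difference was -0.30. Their summed signal, in multiples of the 75th percentile of each array, was 888 to 1116 in the wild-type set and 440 to 934 in the Line 13 set, so the sets overlapped. All 6 were lowest on Line 13 replicate 1 within its set, as were 9 of the 10 members, against 39.9% of all loci. Of 4 markers of dividing tissue, only PCNA was well above background on all 6 arrays, and it rose by 2.81 (SE 0.27). In the wild-type set, the kinase gene CDKB2;1 cleared background on 2 arrays, and the cyclin, the helicase gene MCM6 and both root markers on none. These 5 genes cleared it on all Line 13 arrays and entered the test through that set alone, so nothing is read from their calls, and wild-type values below background are only upper limits. The summed signal of the dividing tissue markers was 0.492 to 0.765 in the wild-type set and 5.92 to 10.6 in the Line 13 set. This sum includes the genes that entered through the Line 13 set alone, so no size of step is read from it. Only PCNA of these 4 markers is compared on all 6 arrays. The summed signal of the root markers was 24.5 to 29.5 in the Line 13 set, nearly all of it from RCc2. Its wild-type values, 0.00743 to 0.0145, are sums of signals below background, so no size of step is read from them. The part of other tissue in the values of the 10 genes was not tested, and in whole blades fewer cells of a type and less RNA per cell cannot be told apart.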

How the data were processed

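Total RNA (100 ng) was labelled with Cy3 and hybridised for 17 h at 65 °C, per the labels' protocols. Agilent Feature Extraction 10.10.1.1 turned the scans into spot intensity, with background subtracted and trends removed within each array, per the file headers. The value table that the authors deposited holds linear intensity too. It is the processed signal times 1 constant per array (1.61 to 7.66) with no centring of genes, and the sources used here do not say how the constants arose. Column medians were 395.65, 426.55 and 412.25 for wild type and 494.5, 554.8 and 561.45 for Line 13.

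Processed signals from the scanner files were scaled to the 75th percentile over each array's non-control spots and put on a log2 scale, leaving out control spots and spots with outlier flags and averaging spots of a probe. Probes entered the test if all 3 arrays of either group had them well above background, and the tested probe with the highest mean stood for a locus. Of 22232 tested rows 22139 carried a locus. The 2 groups were compared in R 4.3.3 using limma 3.58.1 (eBayes after lmFit, no block), with Benjamini-Hochberg adjustment over all rows and a threshold of 0.05. A second fit over all 33369 tested probes gave the values per probe. Isoform pairs were tested with exact two-sided permutation tests over arrays (scipy 1.17.1). The steps were tested on simulated data. No spot of any array was saturated.

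Named genes were all 10 members and, in each pathway list, the 4 with the smallest unadjusted p; others are named as such in the text. The members, the lists and these tests were chosen with earlier results of these data known, and gene names of loci were not checked against an annotation. The array files hold no mean pixel signal, so the background correction planned on it was not run, and one on median signals was added after seeing the data. No sequences of probes, promoters or proteins were used here.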

Additional observations from a re-analysis of the deposited data

How the results depend on the processing

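Across 16 alternatives, CATC, APX3, APX4, GLO1 and GLO4 kept their direction and passed limma's adjusted threshold in every one, with log2 differences from -2.86 to -2.08, 1.18 to 2.32, -2.30 to -1.69, -2.63 to -1.62 and -3.28 to -2.31; the weakest adjusted p among them was 0.0490, for GLO1 without wild-type replicate 1. Differences of these genes cannot change with the other filters, the replicate block or the authors' table, where at most the adjusted p moves. The number of members lower was 5 or 6 throughout. The number higher was 3 under quantile normalization, 2 with probes well above background on all 6 arrays, 2 with arrays scaled to the brightest 25% of loci (chosen after seeing the data), and 1 to 2 when 1 array was left out. CATB was the added gene in each, and APX1 a further one under quantile normalization. CATA, at -0.72 to 0.16 when 1 array was left out, turned positive without Line 13 replicate 1, and APX1 was -0.15 with array medians as the scale; no other member reversed. The cause was not tested.

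In the ascorbate-glutathione list 7 genes were lower with array medians, and 1 was higher with array medians, quantile normalization or the other background correction (chosen after seeing the data); leaving out 1 array gave 3 to 5 lower and 1 to 3 higher. In the photorespiration list 11 to 14 were lower and 1 higher throughout. Of all loci, 3794 were higher with the filter on all 6 arrays, which tests fewer loci, and leaving out 1 array gave 4068 to 7489 lower and 4691 to 7092 higher. Array medians moved the median of all loci by -0.31 and made 36.0% of the calls higher against 48.9%; the scale of the brightest 25% moved it by 0.30 and made 62.7% higher. The isoform pairs kept their sign in all 12 alternatives run, of which array medians and the authors' table cannot change a difference within an array.

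Replicate numbers are shared between groups. Deviations of same-numbered arrays correlated at 0.108, -0.025 and -0.005, within the range of -0.166 to 0.209 for unlike numbers. Pairing by number was thus not seen, though a check on so few arrays cannot exclude it. With the replicate block 6222 lower loci became 5388 and 5950 higher became 5512, and APX8 did not pass (adjusted p = 0.0607; 0.0608 with arrays scaled to the brightest 25%), leaving 5 members lower and 1 higher. Every member probe was well above background on all arrays, so detection limited no call; the dim APX3 moved most with the background correction, from 1.93 to 1.18.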
